A study of Bos taurus with 40 samples.

Results

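The gene set described here holds 60 genes whose transcripts were more abundant in the skeletal muscle of feed-restricted bulls than in that of fully fed bulls, and near the level of the fully fed bulls 15 days after free feeding was restored. They were chosen on group medians of counts per 1000000 (CPM, a gene's read count divided by the summed counts of all genes in its library and multiplied by 1000000). The difference in period 1, called r1, was the log2 ratio of the restricted to the control median after 0.5 CPM was added to each, and r2 was the same ratio in period 2. A gene was taken when r1 was at least 0.6, the size of r2 was under 0.4, and its mean over 40 libraries was from 1 to under 1000 CPM. Of 24616 genes counted, 10959 had a mean in that range, and 60 met every condition. These medians of all 4 groups chose the genes, so the differences between groups are given as descriptions with no test.

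The animals were purebred male Holstein-Friesian cattle, a dairy breed, on one diet of 70% concentrate and 30% grass silage. The restricted group received an allowance set for a gain of 0.6 kg per day for 125 days, called period 1, and then had free access to feed for 55 days, called period 2. The control group had free access to feed for all 180 days and was expected to gain 1.5 to 2 kg per day or more. Muscle biopsies were taken on day 120 of period 1 and on day 15 of period 2, which gave 4 groups of 10 libraries. The protocol texts disagree on whether 20 bulls were used in all or in each feeding group. Title numbers repeat across the times, and they were taken to mark 20 bulls that were each biopsied at both. The labels state neither the animals' ages nor which muscle was sampled. All 4 groups shared breed, sex and diet composition, and the second biopsy came later in life in both feeding groups, so that age and time moved together.

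Muscle of growing cattle that are fed below their appetite accumulates protein slowly, and in mammals such muscle is known to raise the expression of genes for protein breakdown and for the use of fatty acids in place of glucose. When feed is restored, insulin and insulin-like growth factors rise and many of these transcripts fall within days, at the start of the faster gain known as compensatory growth. The count files name genes only by Ensembl identifiers, and the gene table used here held none of them, so which of the 60 genes belong to those pathways was not analysed here. The same holds for markers of muscle fibres, fat, vessels and blood, and the tissue label could not be checked against them. Members are named by their rank in r1, from 1 for the highest to 60 for the lowest, and 4 of them by identifier as well. In a biopsy of mixed cells, fewer cells of a type and less RNA per cell cannot be told apart.

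Libraries held 20.8 to 32.97 M gene counts (M, 1000000 counts), with a median of 25.6 M. The lowest count of any member in any library was 4, and no member was at 0 anywhere. The median count of a member over the libraries ran from 21 to 14140. In 7 libraries the share of reads outside annotated genes was 10.0% to 11.2%, against 13.3% to 18.7% in the other 33. These were control bull 6 and restricted bulls 1 and 9 in period 1, and control bulls 2, 3 and 8 and restricted bull 10 in period 2. They stood apart from the rest in many genes, and values without them are given beside the main results. The sample records give each library a code, and its first number was 5 or 6 in all of these 7. The only other library with such a number was that of control bull 2 in period 1, with 5 and 18.7% of reads outside genes. These numbers were spread unevenly over the groups, and the number 1 occurred only in controls of period 1. What the number stands for was not established, and its part was not tested. The library of control bull 7 on day 15 also stood apart. Its TMM scaling factor was 1.43, against 0.874 to 1.12 in the others, and its 10 most abundant genes took 22.6% of the counts, against 25.5% to 31.4%. On plain CPM it had the highest value of its group for 59.0% of all genes in the abundance range.

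The members were mostly transcripts of low to middle abundance. Their means over the 40 libraries ran from 1.10 to 603.7 CPM, with 21 members under 3 CPM, 16 from 3 to under 10 CPM, 18 from 10 to under 100 CPM and 5 from 100 CPM upwards. Values of r1 ran from 0.60 to 1.52 with a median of 0.71, and 7 members reached 1. Values of r2 ran from -0.38 to 0.39 with a median of -0.04, above 0 in 25 members and below 0 in 35. Over all 10959 genes in the abundance range the medians were -0.11 for r1 and -0.01 for r2. With TMM-scaled library sizes, which correct for the makeup of a library, the median r1 was -0.02 over all genes and 0.81 over the members.

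Each library was then given one level for the whole set, the median over the 60 members of the log2 ratio to the control median of period 1. Restricted libraries of period 1 lay at 0.55 to 0.91, with a median of 0.77. Control libraries of period 1 lay at -0.08 to 0.12. The lowest restricted library stood well above the highest control library, so these groups did not overlap, which the choice of members favours. On day 15 of period 2 the previously restricted libraries lay at -0.22 to 0.31 with a median of 0.04, and the control libraries at -0.14 to 0.21 with a median of -0.04. The groups of period 2 overlapped over most of their range, and on plain CPM the previously restricted bulls took both the highest and the lowest place. With TMM scaling a control library was lowest, at -0.18, against -0.14 for the lowest previously restricted library. Over all genes in the range, the same level of the restricted libraries in period 1 was -0.19 to 0.01. Without the 7 libraries, the set level of the restricted libraries in period 1 had the same extremes, 0.55 and 0.91, and a median of 0.76.

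**Figure D1:**
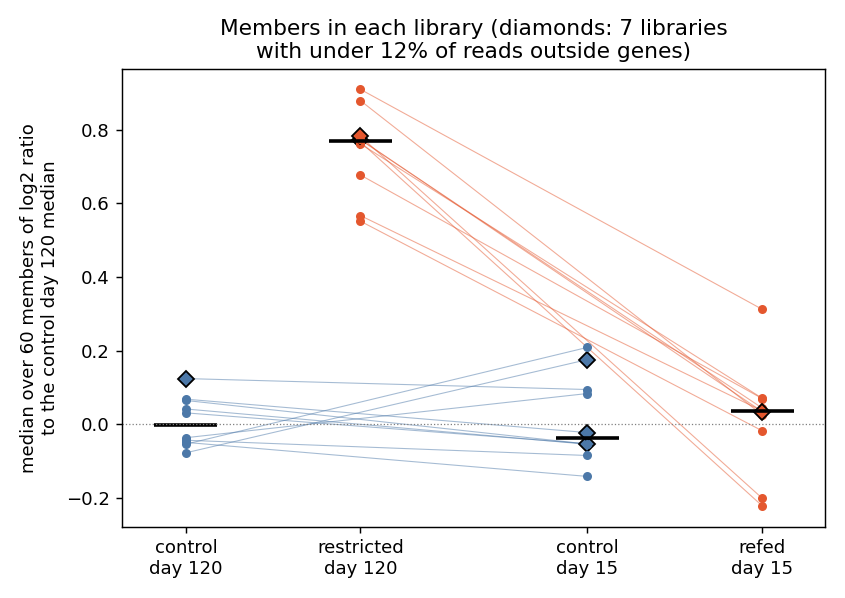
Set level per library, the median over the 60 members of the log2 ratio to the control median of period 1, with lines joining libraries of the same numbered bull and black bars at group medians. Restricted libraries of period 1 sit between 0.55 and 0.91, above every other library, and all 10 restricted bulls come down to between -0.22 and 0.31 on day 15.

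Every restricted bull lost the higher level between the biopsies. Its set level changed by -0.53 to -0.99 on the log2 scale, and 47 to 58 of the 60 members were lower on day 15 than in the same bull at day 120. In the control bulls 16 to 43 of the members were lower at the second biopsy. A restricted library of period 1 held 50 to 59 members above their control median, and a control library of the same period 22 to 39. By day 15 the number was 16 to 43 in the previously restricted bulls and 22 to 39 in the controls. The restricted groups moved from nearly the whole set being above the control median to about the same share as the controls. The rule used the group medians of the same libraries, which favours this shift.

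Bulls differed in how far the set moved. On plain CPM, restricted bull 7 had the highest set level at both biopsies, 0.91 at day 120 and 0.31 on day 15. With TMM scaling it was highest on day 15, at 0.27, but restricted bull 5 was highest at day 120, at 1.01 against 0.92. On plain CPM, bull 7 had the highest value of its group for 10 members in period 1 and for 23 members in period 2. Restricted bulls 6 and 9 then had the lowest set levels on day 15, at -0.22 and -0.20, and bull 6 had the lowest value of its group for 19 members. In the control group, bull 7 was highest for 19 members on day 15, or 31.7%, a lower share than the 59.0% over all genes. With TMM scaling the set level of that library was -0.18, the lowest of its group, where plain CPM gave 0.21, the highest. Control bull 6, whose library was 1 of the 7, was highest for 16 and lowest for 12 members at day 120.

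**Figure D2:**
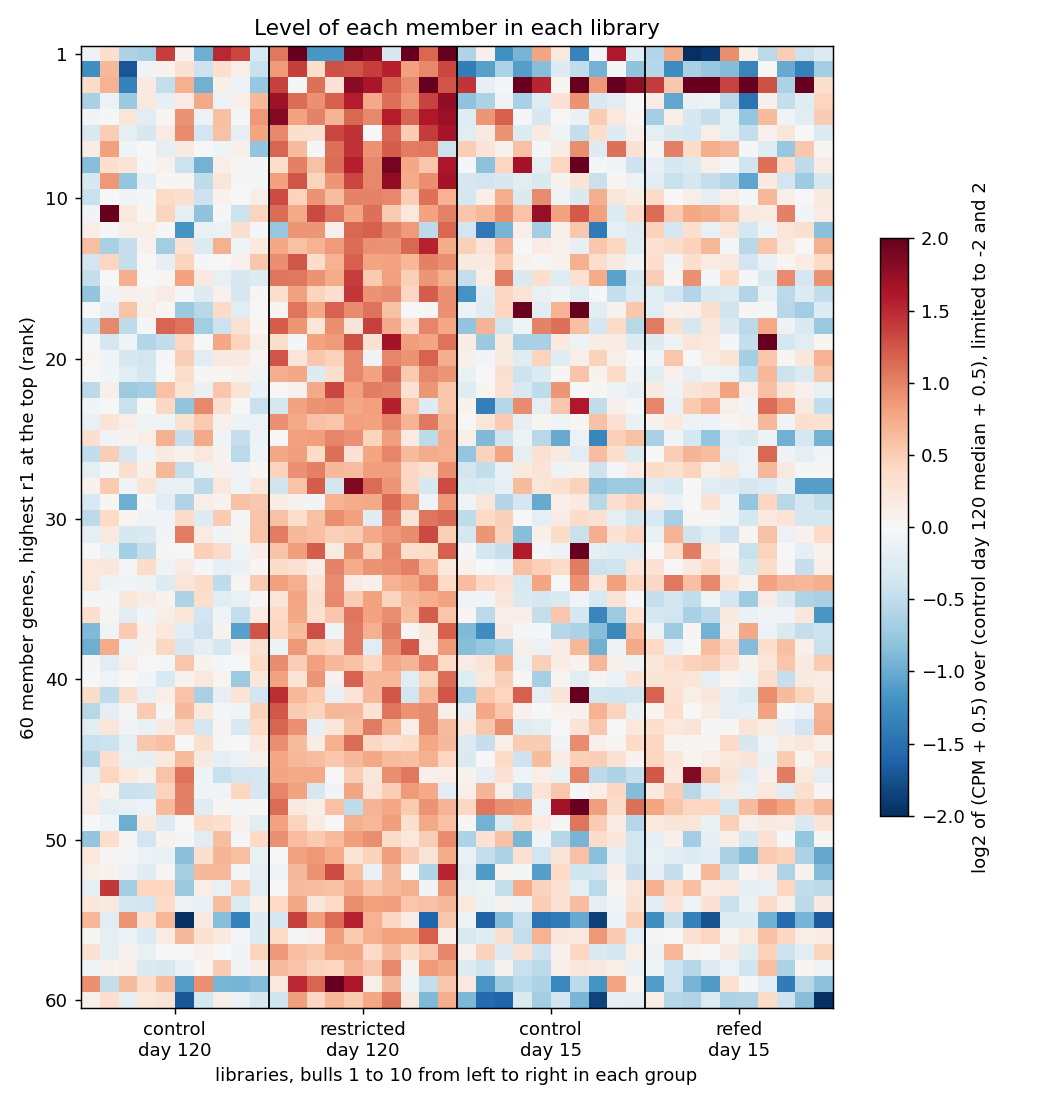
Log2 ratio of each member (rows, in order of r1) to its control median of period 1 in each of the 40 libraries (columns, by group and bull). The block of restricted libraries in period 1 stands above the other 3 blocks over nearly all rows, with single members high in single bulls elsewhere.

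The highest r1 belonged to ENSBTAG00000023648, ranked 1. Its values were 2.71, 5.84 and 17.5 CPM (lowest, median and highest of 10) in the controls of period 1 and 2.31, 17.7 and 31.0 CPM in the restricted bulls. On day 15 they were 2.00, 5.27 and 18.7 CPM in the controls and 0.821, 4.49 and 11.5 CPM in the previously restricted bulls. Groups overlapped at both times: restricted bulls 3, 4 and 7 stayed between 2.31 and 4.57 CPM in period 1, below the control median, while the other 7 reached 12.7 to 31.0 CPM. The means were 8.26 ± 5.77 CPM (SD, n = 10) in the controls and 16.3 ± 10.6 CPM (SD, n = 10) in the restricted bulls of period 1. Its r1 was 1.52 from the medians and 0.94 from the means, 1.98 without the 7 libraries, and 1.14 to 1.82 when single libraries were left out. All 10 restricted bulls were lower at the second biopsy, by 1.18-fold to 5.26-fold with a median of 3.06-fold. A bull with a high level at one biopsy also had one at the other, with Pearson's r of 0.91 over the 10 restricted bulls and 0.85 over the 10 controls, on log2 CPM. These correlations are descriptions, and the bulls within each share a feeding group.

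ENSBTAG00000025848, ranked 2, separated the feeding groups more cleanly. In period 1 its values were 5.56, 19.2 and 30.4 CPM in the controls and 24.8, 47.0 and 57.7 CPM in the restricted bulls, of which 9 were above every control. On day 15 they were 7.09, 10.6 and 18.7 CPM in the controls and 7.28, 10.7 and 19.1 CPM in the previously restricted bulls. The groups of day 15 covered nearly the same range, and both lay mostly under the control values of period 1. Its r1 was 1.27 and its r2 0.02. Restricted bulls were 2.05-fold to 6.88-fold lower at the second biopsy, with a median of 4.22-fold, and 9 of the 10 control bulls were lower as well.

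ENSBTAG00000027654, ranked 5, had nearly the same control median at both biopsies. Its values were 27.9, 32.9 and 61.7 CPM in the controls and 53.0, 73.8 and 118.5 CPM in the restricted bulls of period 1, with 8 restricted bulls above every control. On day 15 the controls were at 26.2, 33.3 and 76.2 CPM and the previously restricted bulls at 19.1, 28.6 and 51.4 CPM. The restricted bulls had moved from above most controls to values mostly at or under the control median. The fall in the same restricted bull was 1.60-fold to 5.82-fold with a median of 2.45-fold, r1 was 1.16 and r2 was -0.21. Single control bulls moved both ways, with day 120 values 0.51 to 1.89 times those of day 15 and a median of 1.04.

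ENSBTAG00000000770, ranked 55, had a small r1 and a large decline. Its values were 1.85, 10.5 and 19.8 CPM in the controls and 3.18, 16.4 and 31.5 CPM in the restricted bulls of period 1. On day 15 they were 2.52, 5.26 and 14.8 CPM in the controls and 2.78, 4.67 and 8.65 CPM in the previously restricted bulls. The groups overlapped widely in period 1, and both medians had come down by day 15. It was lower at the second biopsy in 9 restricted bulls and in 7 control bulls. Its r1 was 0.62, and 0.42 to 0.85 when single libraries were left out, and 0.57 without the 7 libraries. Its r2 was -0.15, and -0.52 without those libraries, so it would then meet neither limit of the rule.

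**Figure D3:**
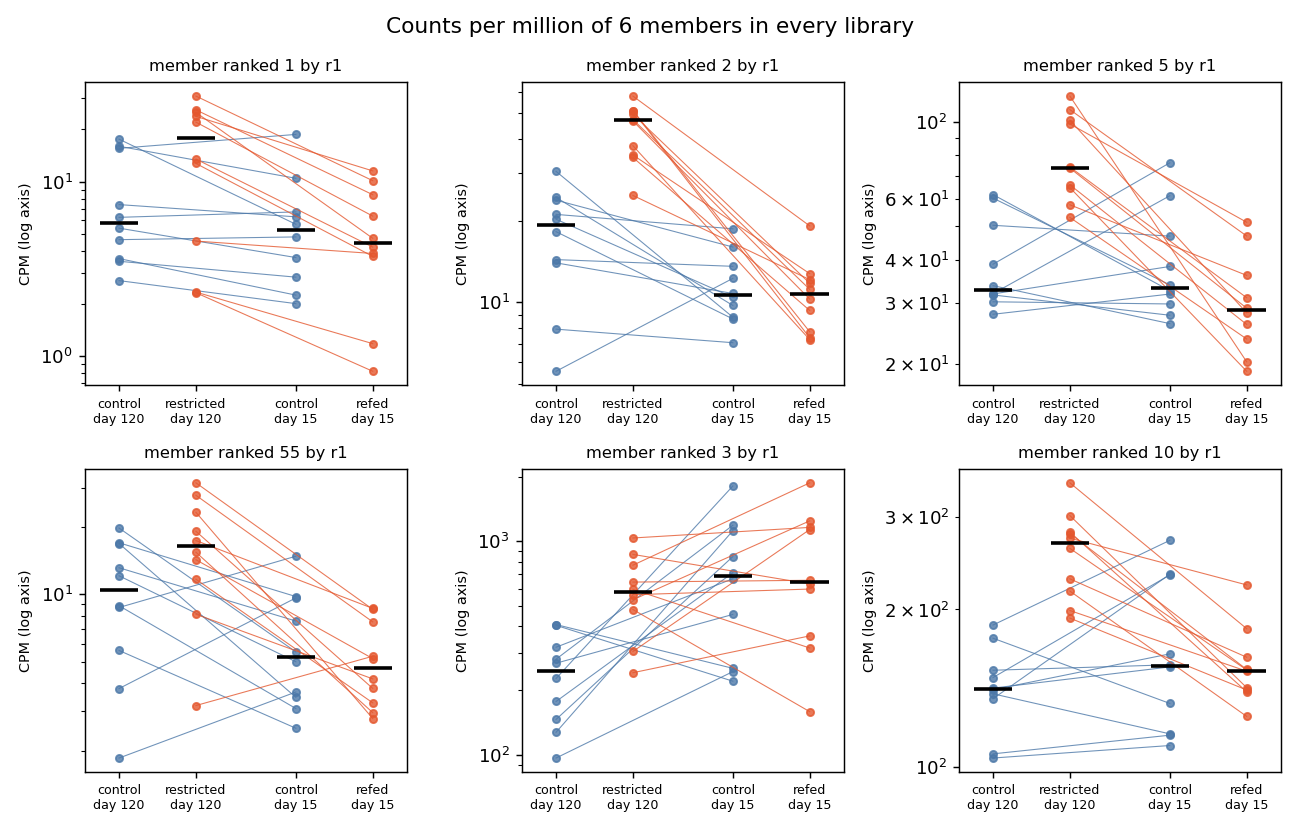
CPM per library on a log axis for the members ranked 1, 2, 3, 5, 10 and 55, in control (blue) and restricted (red-orange) libraries of both periods, with lines joining libraries of the same numbered bull and black bars at group medians. The panels show members with separate groups in period 1, members with wide overlap, and the member ranked 3, whose control values went up in period 2.

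In 4 members the restricted bulls of period 1 were all above all controls, those ranked 8, 10, 16 and 24. Of all 10959 genes in the abundance range, 0.119% had this order of libraries, and since the rule used the medians of the same libraries, nothing is read from the members' share. Without the 7 libraries it was 6 members and 0.192% of all genes. The member ranked 24, with 144.9, 160.0 and 229.9 CPM in the controls, was at 235.8, 275.6 and 333.4 CPM in the restricted bulls. On day 15 it was at 142.6, 164.9 and 239.8 CPM in the controls and at 147.5, 169.2 and 250.0 CPM in the previously restricted bulls. The previously restricted bulls and the controls then covered nearly the same range.

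The member ranked 10 had 103.9, 140.9 and 186.7 CPM in the controls of period 1 and 192.5, 267.8 and 349.4 CPM in the restricted bulls. On day 15 it was at 109.8, 156.0 and 271.2 CPM in the controls and 124.8, 152.8 and 222.8 CPM in the previously restricted bulls. The gap of period 1 was narrow, with the lowest restricted bull just above the highest control. Its r2 was -0.03, and 0.20 without the 7 libraries. The member ranked 16 had 3.14, 5.82 and 6.59 CPM in the controls and 7.49, 10.9 and 16.3 CPM in the restricted bulls of period 1. On day 15 its controls were at 2.27, 5.07 and 7.97 CPM and its previously restricted bulls at 3.71, 4.51 and 5.19 CPM. The previously restricted bulls then formed a tight group inside the control range.

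The member ranked 8 was scarce, with 0.479, 1.38 and 1.89 CPM in the controls and 1.90, 3.23 and 6.62 CPM in the restricted bulls of period 1. On day 15 it was at 0.572, 1.36 and 9.68 CPM in the controls and 0.822, 1.26 and 3.55 CPM in the previously restricted bulls. The highest value of all 40 libraries was thus in a control of day 15, in the library of bull 7. Over the whole set, at least 5 of the 10 restricted bulls were above every control of period 1 in 49 members, and none was in 4 members. In 31 members all 10 restricted bulls were above the control median. On day 15, all 10 previously restricted bulls lay within the control range in 25 members, and at least 8 of them did in 47 members. The rule used the medians of the same libraries, which favours such counts. No share over all genes stands beside them, and nothing is read from them.

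A small r2 can come from a fall in the restricted bulls, a rise in the controls, or both, so the medians of each feeding group were followed over time, with 0.2 on the log2 scale as the width for little change. In 35 members the restricted median was lower by more than 0.2 and the control median moved by 0.2 or less. The restricted change in these had a median of -0.63 and a range of -1.87 to -0.34. In 13 members both medians were lower, the restricted by -2.08 to -0.72 and the control by -0.93 to -0.22. In 9 members the restricted median was lower by -0.97 to -0.35 and the control median higher by 0.21 to 0.73. The gap closed between the groups was r1 less r2, and the restricted fall was expressed as a share of it. This share was over 80% in 45 members and 50% to 80% in 11 members. It was under 50% in the 4 members ranked 3, 11, 34 and 48. Where the control median also fell, by any amount, the restricted fall was larger than the gap closed. The share was then up to 309.5%, in the member ranked 37. A share over 80% therefore does not mean that the restricted fall closed the whole difference between the groups. Without the 7 libraries the first 3 courses held 40, 9 and 8 members, and the members ranked 3, 34 and 48 were again the 3 outside them.

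**Figure D4:**
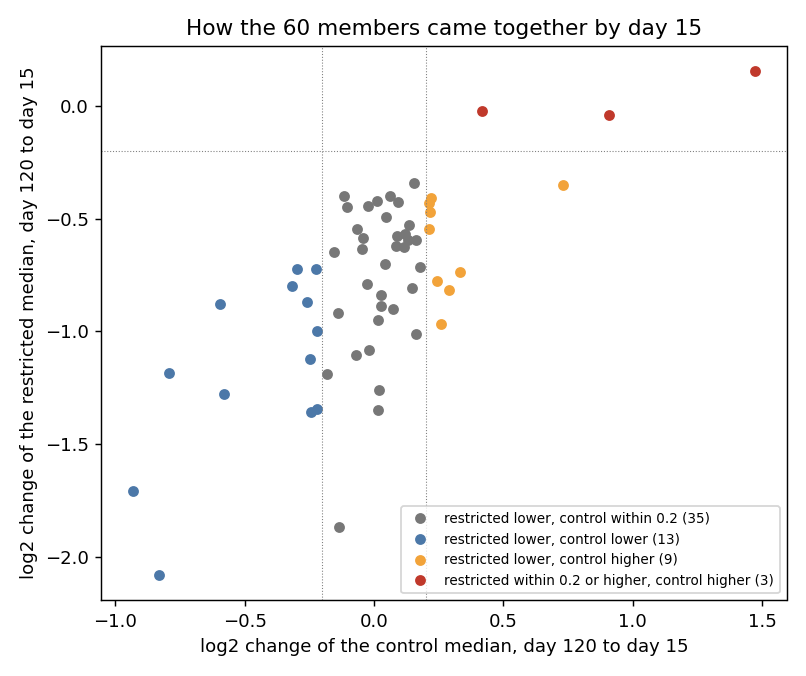
Change of the restricted median against change of the control median from period 1 to period 2, in log2 CPM, one point per member. 57 points lie below -0.2 on the restricted axis, and the members ranked 3, 34 and 48 lie at -0.04 to 0.15 on it, with controls higher by 0.42 to 1.47.

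In 57 of the 60 members the restricted median thus came down by more than 0.2. Of these, the members ranked 37 and 46 still had r2 of 0.39 and 0.35 against r1 of 0.67 and 0.64, so over 50% of the difference was left. The other 3 members followed another course. In the members ranked 3, 34 and 48, the restricted median changed by -0.04 to 0.15 and the control median by 0.42 to 1.47. The member ranked 3, the most abundant of the set, had 96.5, 248.0 and 407.2 CPM in the controls and 242.2, 578.4 and 1036 CPM in the restricted bulls of period 1. On day 15 it was at 221.0, 689.5 and 1814 CPM in the controls and at 159.1, 643.9 and 1877 CPM in the previously restricted bulls. The controls were higher at the second biopsy in 8 of 10 bulls, and 6 of the 10 were then above the restricted median of period 1. Of the restricted bulls, 3 of 10 were lower at the second biopsy. Its r2 was -0.10, and -0.37 without the 7 libraries.

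The member ranked 34 went from 8.39, 12.1 and 17.7 CPM to 9.65, 16.3 and 23.1 CPM in the controls and from 13.1, 19.9 and 24.2 CPM to 12.9, 19.6 and 25.7 CPM in the restricted bulls. The restricted values hardly moved. The member ranked 48 went from 2.16, 2.64 and 5.84 CPM to 2.43, 5.40 and 12.2 CPM in the controls, of which 9 of 10 were higher at the second biopsy. Its restricted bulls were at 1.71, 4.36 and 6.32 CPM and then at 1.97, 4.23 and 5.43 CPM, and overlapped the controls widely both times. Its r1 was 0.57 without the 7 libraries, under the limit of the rule, and its r2 -0.34. The summed CPM of the set also moved with the member ranked 3: its group medians were 1338, 2613, 1849 and 1954 CPM in control and restricted bulls of period 1 and control and previously restricted bulls of period 2. Without that member the medians were 1157, 1909, 1168 and 1128 CPM, and restricted libraries of period 1, at 1640 to 2047 CPM, were above all others.

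Counts of members in the edgeR quasi-likelihood fit over all 40 libraries, with a call at a Benjamini-Hochberg adjusted p under 0.05 over 12753 genes, are given for reference. Since the rule used the same contrasts, nothing is read from them. In period 1, 46 of the 60 members were called higher in restricted bulls, where 4.49% of all genes tested were. In period 2, 1 member was called higher, where 3.28% of all genes were, and 1 lower, where 3.92% were. These were the members ranked 46 and 17, with r2 of 0.35 and -0.38. Over the alternative fits and left-out libraries, 0 to 2 members were called in each direction. Between the biopsies of the restricted bulls 47 members were called lower, where 9.34% of all genes were.

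Between the biopsies of the control bulls edgeR called 0 members, where 0.0392% of all genes were called in either direction. At an unadjusted p under 0.05 it found 10 of the 60 members, and 2439 of the 12753 genes tested. DESeq2 called 2 members and 113 genes, and limma with voom called 0 members and 10 genes. With a block for each bull, edgeR called 0 members and found 9 members and 2400 genes at that unadjusted p. The difference between the changes of both feeding groups was called for 28 members, all with the lower change in the restricted bulls, where 3.35% of all genes were called in that direction. Called in both period 1 and over time in the restricted bulls were 40 members, of which 26 were also called for the difference of changes. In none of the 5 contrasts, with period 2 and the controls over time included, were 5 members called. No share over all genes stands beside these combinations, and nothing is read from them. The 14 members not called in period 1 included those ranked 1 and 55. Without the 7 libraries, 50 members were called higher in period 1, 46 lower over time in the restricted bulls, 2 higher in the controls and 21 for the difference of changes. Of the 12934 genes tested in that fit, 1077, 1886, 77 and 341 were called in the same directions.

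Variation among animals of a group is given beside that of all genes in the abundance range as a description, since a limit on a difference of medians can favour variable genes. The members were also scarcer, with 35.0% under 3 CPM against 19.0% of all genes. Their median SD of log2 CPM was 0.40 in controls and 0.39 in restricted bulls of period 1, and 0.47 and 0.38 in period 2, against 0.29, 0.28, 0.36 and 0.27 over all genes. Single members ranged from 0.10 to 1.36. With the SD pooled over the groups, members under 3 CPM had a median of 0.40 against 0.39 over all genes of that abundance, and members from 10 to under 100 CPM 0.40 against 0.27. Within groups, members hardly moved together: the median correlation between pairs of members over the 10 libraries of a group was 0.06 and 0.10 in control and restricted bulls of period 1 and 0.09 and 0.17 in period 2. Over all genes it was 0.08, 0.05, 0.31 and 0.11, in libraries that differ in scaling and in reads outside genes. The medians without the 7 libraries were 0.06, 0.14, 0.09 and 0.20 over the members and 0.07, 0.08, 0.38 and 0.11 over all genes.

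Over the deviations from group means in all 40 libraries, 9 of 1770 pairs of members correlated above 0.7, a share of 0.509% against 5.57% over all genes. The libraries differ in scaling and in reads outside genes, so these shares are descriptions only. In the 33 libraries without the 7 apart, 6 pairs of members were above 0.7, and the share over all genes was not computed. The closest over all 40 libraries were the members ranked 25, 55 and 59, with pairwise r of 0.83 to 0.85, and 0.78 to 0.83 in the 33 libraries. The members ranked 2 and 9 had an r of 0.80, and 0.81 in the 33 libraries. The members ranked 12 and 60 had an r of 0.73, which was 0.01 in the 33 libraries, so their correlation was not seen without the 7 libraries. Its cause was not tested.

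Which bull is high in a member was partly kept between the biopsies. The correlation of a member's log2 CPM between the biopsies of the same numbered bulls had a median of 0.22 in controls and 0.27 in restricted bulls, against 0.06 and 0.02 over all genes. It was above 0.6 in 9 members in the controls, 15.0% against 6.41% of all genes, and in 14 members in the restricted bulls, 23.3% against 6.79%. The member ranked 1 had the highest value of the set in the restricted bulls. These correlations each rest on 10 bulls and are descriptions. The 7 libraries fell on different bulls at each biopsy. Lower in all of them than in the other libraries of their group were 19.2% of all genes and 6.67% of members, and higher 3.08% and 0%. The correlations were not computed without these libraries, so the difference from all genes is not read as a trait of the members.

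Of all genes in the range, 104 reached an r1 of 0.6, and the 60 members were those with an r2 within 0.4. The other 44 were split evenly, with 22 still higher in previously restricted bulls on day 15 and 22 lower than the controls by then. These sets were cut from one list by r2, so their differences are a description. Median r1 was 0.71 in the members, 0.87 in the genes still higher and 0.79 in the genes then lower. The median change of the restricted medians was -0.72, -0.21 and -1.19 in that order, and that of the controls 0.02, -0.15 and 0.18. On plain CPM, 494 genes had an r1 of -0.6 or less, and 376 of these an r2 within 0.4. The balance moved with the scaling: with TMM 159 genes had an r1 of at least 0.6, of which 109 had an r2 within 0.4, and 335 had an r1 of -0.6 or less, of which 237 had an r2 within 0.4.

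The edges of the set were crowded. The 3 members nearest the limit had r1 of 0.6001, 0.601 and 0.602, and the 3 genes just outside had 0.598, 0.596 and 0.596. On the other limit the members nearest had r2 of 0.394, 0.391 and -0.381, and the genes just outside -0.407, -0.419 and -0.420. Leaving out single libraries gave sets of 53 to 76 genes, which shared 45 to 59 with the 60, and 32 members stayed in all of them. With group means in place of medians the set held 46 genes, 31 of them shared. Without the 7 libraries it held 71 genes, 44 of them shared. The r1 of the members was then 0.45 to 1.98, with a median of 0.77. Those that stayed in the set under every left-out library, with means, with TMM scaling, with both other pseudocounts and without the 7 libraries numbered 19.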

How the data were processed

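Messenger RNA of 40 muscle biopsies was sequenced from single-end TruSeq libraries, per the labels' protocols. Tools listed in the submitters' processing notes are CASAVA 1.4, TopHat, HTSeq and edgeR, with the cattle assembly UMD3.1; their roles and settings were not given in the sources used here. The values used are the authors' deposited whole-number read counts per gene. A second deposited file per library, with normalised values, was not used. Rows that name no gene were dropped before scaling and testing. Reads outside annotated genes were 10.0% to 18.7% of a library, and 92 spike-in rows held 0 counts. No pair of libraries in a group agreed within sampling noise (smallest chi-square per gene 22.8), so each was counted as 1 sample. Reads shared by overlapping genes or near-identical copies could not be traced by identifier, and strand use in counting was not stated by the labels.

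CPM and medians were computed in Python 3.11.15. All genes were fitted with edgeR 4.0.16 in R 4.3.3 (quasi-likelihood, TMM, filterByExpr with a minimum count of 10 and total of 15) over 4 group means, which left 12753 genes. The fit was tested on simulated data. P-values of this fit reflect the spread among libraries within groups. It had no term for the bull, so both biopsies of a bull were treated as independent in the contrasts over time. DESeq2 1.42.0, limma 3.58.1, other scalings and filters, a block for each bull, a term for 7 libraries and leaving out each library were alternatives, and counts of courses and of separate groups without the 7 libraries, TMM counts at the limits and spread by abundance were added after seeing the data. The members and lists were chosen with earlier results of these data known. Groups came from the titles.

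Numbers were taken to pair the biopsies of a bull: with the term for the 7 libraries, same-numbered libraries deviated together across genes at 0.11 to 0.45 in controls (median 0.18) and 0.21 to 0.43 in restricted bulls (median 0.30), all above 0.1. Without the term 7 of 10 pairs in each feeding group were above 0.1. The pairing is less sure in controls: with the term, only 6 libraries at day 120 and 4 on day 15 had their own number as the closest, where all 10 did at both times in restricted bulls, and other numbers reached 0.34.

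The reference table (ARS-UCD2.0, 37063 rows) held 0 of the identifiers in the count files. The gene lists, cell type markers and promoter motifs written for this work were therefore not applied, and no sequence or coordinate is given. The members named were to be those on the lists and those with the highest r1 and mean that have a gene name. That rule could not be applied, and the members described were chosen after their values were seen.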

Additional observations from a re-analysis of the deposited data

Results flagged for a closer look

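Among the 11 members whose values are given by group, 5 had a group in which 1 bull lay far from the other 9. ENSBTAG00000023648, ranked 1, was at 18.7 CPM in control bull 9 on day 15, against 2.00 to 10.5 CPM in the other controls. In 3 others it lay in previously restricted bull 7 on day 15. ENSBTAG00000025848, ranked 2, was at 19.1 CPM there against 7.28 to 12.8 CPM in the others. The member ranked 8 was at 3.55 CPM against 0.822 to 1.97 CPM, and the member ranked 24 at 250.0 CPM against 147.5 to 200.03 CPM. The member ranked 48 was low in previously restricted bull 5 on day 15, at 1.97 CPM against 3.67 to 5.43 CPM. The mark was a gap to the nearest bull beyond Dixon's 95% critical value for the group's range. Over all 60 members and 4 groups it was met 27 times in 240, of which 10 were in controls and 2 in restricted bulls of period 1, and 7 and 8 in period 2. Chance gives about 1 in 20 for normally distributed values. Over all genes in the abundance range the mark was met in 16.4% of groups, against 11.2% over the members. No cause was tested.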

How the results depend on the processing

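The period 1 difference was called for 1249 genes, with 2273 under a term for the 7 libraries and 2102 without them. The period 2 difference was called for 918 genes, with 579 in a fit to the compared groups and 1413 with the term. The change over time in restricted bulls was called for 2442 genes, and for 3990 with the term. In controls 5 genes were called over time, with 113 by DESeq2, 22 with size factors, 20 with a filter at 1 CPM, 10 by limma with bull as a random effect, 3 in the groups alone, 33 with the term, 13 on total counts and 90 without the 7 libraries. With a replicate block for each bull, the counts were 3 in controls, 2581 in restricted bulls and 944 for the difference of changes, against 812, and the block changed no other call count by over 1.5 times. The rule gave 109 genes with TMM scaling, 112 at an r1 of 0.5 and 20 at 0.8. Total counts gave 285 genes higher and 1102 lower in period 1, against 573 and 676. Causes were not tested.

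Leaving out single libraries gave 965 to 1507 genes in period 1, 567 to 1363 in period 2, 2071 to 2621 in restricted bulls, 2 to 298 in controls, 640 to 1318 for the difference of changes, and 53 to 76 members. Period 2 fell to 567 and 600 without control bulls 2 and 8 of period 2, and to 610 and 576 without restricted bulls 8 and 9. The difference of changes rose to 1262 without control bull 6 of period 1 and to 1318 without restricted bull 10 of period 2. The control count was 42, 298, 10 and 3 without control bulls 2, 6, 8 and 9 of period 1. It was 53, 20, 26, 27, 81, 2, 17, 73 and 41 without control bulls 1, 2, 3, 5, 6, 7, 8, 9 and 10 of period 2. It was 24, 22 and 29 without restricted bulls 2, 7 and 9 of period 1, and 23, 13, 32, 22 and 8 without restricted bulls 2, 3, 5, 7 and 8 of period 2. Members called ranged over the alternatives from 41 to 53 in period 1, 42 to 53 over time in restricted bulls and 0 to 2 in controls, and in period 2, left-out libraries included, from 0 to 2 in each direction. Of 11054 to 19129 genes tested, 285 to 1077 were called higher in period 1 and 686 to 2018 lower over time in restricted bulls. In controls 2 to 90 genes were called higher over time. The rule used the same contrasts, so nothing is read from the members' counts. Lowest-abundance members rest on few counts.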

Other observations

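Control bulls 4 and 7 both stood above the other 8 controls on day 15 in 9 members, or 15.0%, against 23.4% of all genes in the abundance range, a pattern chosen after the values were seen. The library of bull 7 has the high scaling factor given above. The distance was largest in the members ranked 8, 17, 32 and 41. The member ranked 8 was at 5.50 and 9.68 CPM in these bulls and at 0.572 to 2.04 CPM in the others. The member ranked 17 was at 76.0 and 78.3 CPM against 16.0 to 31.0 CPM. The member ranked 32 was at 4.49 and 8.88 CPM against 0.706 to 1.18 CPM, and the member ranked 41 at 5.01 and 23.7 CPM against 1.00 to 2.99 CPM. A group median takes little from such bulls, and a mean takes more: with means, r2 was outside 0.4 in 7 of the 60 members and r1 was under 0.6 in 24.

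The members ranked 12, 23, 51 and 60 were lower in each of the 7 libraries with few reads outside genes than in every other library of the same group. The member ranked 60 was at 2.88 to 3.65 CPM in the 3 such control libraries of period 2 and at 5.97 to 10.3 CPM in the other 7. Of all 10959 genes in the abundance range, 19.2% had this order, and 6.67% of the members did. Its part in the differences between feeding groups was not tested in single members.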
